A study of Homo sapiens with 3 samples.

Results

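The 6 genes NRXN3, CTNND2, MACROD2, DLG2, GPC6 and LRMDA are very long protein-coding genes, named for their length and for neuronal or fragile-site biology, and they were followed through peak lists of the splicing factor USP39 and of RNA polymerase II. They are 6 of the 12038 genes named in the 2 lists. The genes were chosen by the peaks assigned to them in these lists, so their numbers of peaks are given as a description, with no test. Every row of either list that carried their symbols was taken, and each peak position was counted once. This gave 62 of 11565 Flag-USP39 peaks and 36 of 14027 POLR2A peaks. LRMDA stands in both lists under its older symbol, C10orf11.

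The peaks come from chromatin immunoprecipitation with sequencing (ChIP-seq) in A2780, a human cell line labelled as serous ovarian cancer, in which USP39 carried a Flag tag. Of 3 libraries, 1 was precipitated through the Flag tag and 1 through POLR2A, the catalytic core subunit of RNA polymerase II, which served as positive control. The last was the input, for which 10% of the genomic DNA was set aside. Neither precipitation had a replicate, and the labels name no Flag precipitation from cells without the tag. Both lists were called against the same input, so peaks of the 2 lists are not independent. Tag counts, scores and fold enrichments are the authors' own values for each peak, and positions are on hg19.

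Long genes of this kind consist almost wholly of intron. A polymerase needs many hours to cross them, and many of them replicate late and overlap common fragile sites, the regions where chromosomes break when replication is slowed. NRXN3 encodes a neurexin, a presynaptic receptor whose many isoforms come from alternative starts and splicing. CTNND2 encodes delta-catenin, a partner of cadherins in neuronal junctions, and DLG2 encodes PSD-93, a scaffold of the postsynaptic density. GPC6 encodes a glypican, a cell-surface heparan sulphate proteoglycan. MACROD2 encodes an enzyme that removes ADP-ribose from proteins and is often carries internal deletions in tumours, and LRMDA encodes a leucine-rich repeat protein of melanocyte differentiation. GPC6 and LRMDA are thus not known mainly as neuronal genes, and nothing in the peak lists bears on the neuronal or fragile-site part of the name.

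The length of the genes was plain in the lists. From the first to the last annotated end, DLG2 spanned 2.17 Mb (chr11:83166055-85338314, minus strand), MACROD2 2.06 Mb (chr20:13976145-16033841, plus strand) and NRXN3 1.70 Mb (chr14:78636715-80334633, plus strand). GPC6 spanned 1.18 Mb (chr13:93879077-95060273, plus strand), LRMDA 1.13 Mb (chr10:77191403-78317133, plus strand) and CTNND2 0.932 Mb (chr5:10971953-11904155, minus strand). Together they made up 9.17 Mb.

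Of the 62 Flag-USP39 peaks, 60 were of the intron class and 2 of the promoter class, which reaches 2 kb from a transcription start. None lay in an exon. Over the whole Flag-USP39 list, 31% of peaks were intronic, 5.78% were at promoters, 4.38% were in exons and 45.8% were intergenic. Of the 36 POLR2A peaks, 34 were intronic and 2 intergenic, both of them upstream of NRXN3, and none was at a promoter. Over the whole POLR2A list the intron class took 27.6%, the promoter class 17.9%, the exon class 4.62% and the intergenic class 36.0%. Long genes of this kind are almost wholly intron, while the lists also cover intergenic sequence. The intron shares of the 6 genes and of the lists are therefore not like for like. By coordinates, whatever the symbol, no POLR2A peak had its centre within 2 kb of a listed start of the 6 genes, and at this depth that does not show that polymerase was absent.

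The promoter peaks lay at DLG2 and CTNND2. The DLG2 peak, chr11:83392913-83393696, held 6 Flag-USP39 tags and covered the most downstream DLG2 start in the lists, that of NM_001142702, far inside the gene. Its centre was 164 bp inside that transcript. The nearest POLR2A peak, with 4 tags, was 2.98 kb away. The CTNND2 peak, chr5:11904971-11905523, held 5 Flag-USP39 tags, and its centre lay 1.09 kb before the start of the full-length transcript. The nearest POLR2A peak was 362 kb from it. These 2 starts had the promoter peaks of the 6 genes, so the 250 bases before the RefSeq start matched to each are shown. The sequences come from RefSeq (GRCh38.p14, minus strand of chr11:83682289-83682538 and of chr5:11904447-11904696), and capitals mark every CG dinucleotide. The DLG2 window was taken as the most downstream of 9 DLG2 windows, and the peaks' DLG2 start is the most downstream of those in the lists, so that match rests on order alone. The CTNND2 window is the more upstream of 2 windows, as its start is the more upstream of 2 in the lists. This match, too, rests on order alone. Positions were not converted between hg19 and GRCh38.p14, so either window may lie before a different start.
DLG2: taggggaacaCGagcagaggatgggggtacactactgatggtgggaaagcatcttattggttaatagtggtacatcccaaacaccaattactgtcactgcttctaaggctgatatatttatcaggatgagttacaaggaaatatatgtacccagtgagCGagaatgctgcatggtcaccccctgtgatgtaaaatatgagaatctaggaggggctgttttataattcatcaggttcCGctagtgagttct
CTNND2: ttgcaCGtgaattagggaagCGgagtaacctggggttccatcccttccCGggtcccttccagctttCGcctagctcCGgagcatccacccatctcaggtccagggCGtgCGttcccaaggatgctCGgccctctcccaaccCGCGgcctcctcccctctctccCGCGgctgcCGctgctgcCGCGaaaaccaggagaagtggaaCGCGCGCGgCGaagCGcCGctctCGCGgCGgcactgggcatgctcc
The sequences were unlike. The DLG2 window had 43.2% G and C and 3 CG dinucleotides, against a median of 58.0% and 11 over 35116 windows of the same length. The CTNND2 window had 67.2% G and C and 25 CG dinucleotides, a number reached by 21.6% of all windows. The hexamer TATAAA, searched on both strands, occurred once in the DLG2 window, on the opposite strand at -33 from the start, and not in the CTNND2 window. It occurred in 10.7% of all windows. If the start was matched rightly, the CTNND2 peak begins farther upstream than its window reaches.

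**Figure D1:**
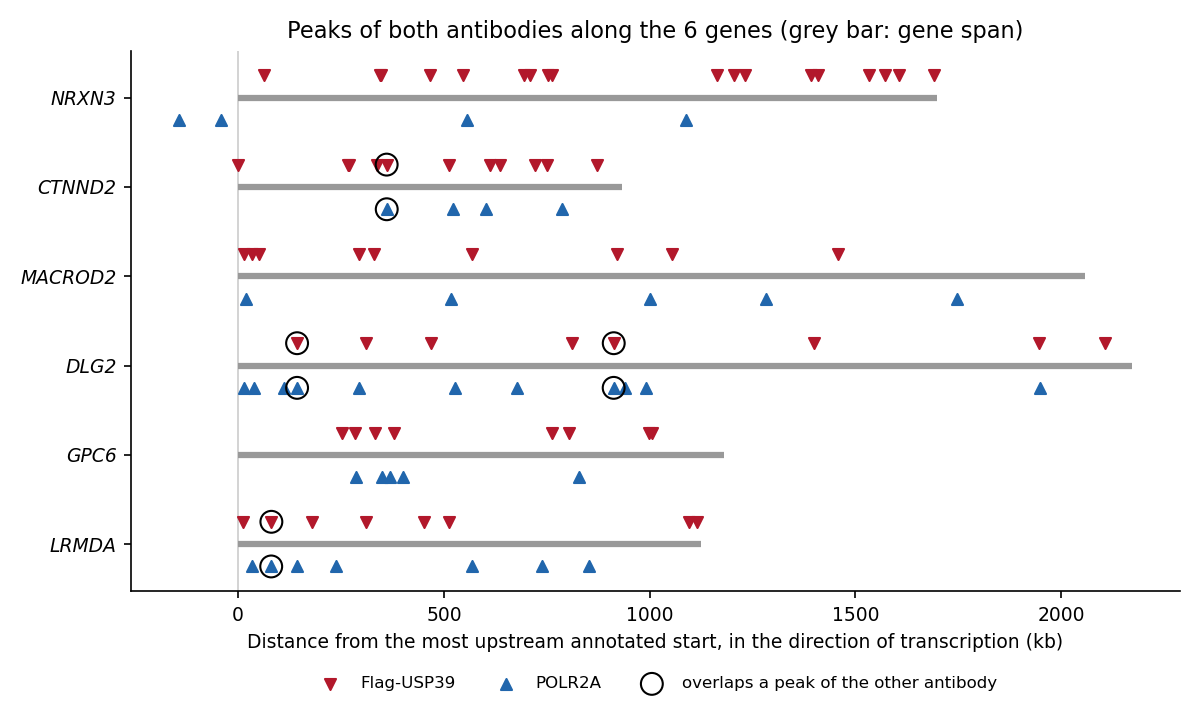
Position of every peak of the 6 genes, as kb from the most upstream annotated start in the direction of transcription, with Flag-USP39 peaks above and POLR2A peaks below the grey bar that spans each gene. Circles mark the 4 places where peaks of both antibodies overlap, 2 of them in DLG2, and the 2 leftmost POLR2A peaks lie upstream of NRXN3.

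NRXN3 held more Flag-USP39 peaks than any other member. It had 18, all intronic, against 2 POLR2A peaks within the gene. The Flag-USP39 density was 10.6 peaks per Mb (exact 95% Poisson interval 6.28 to 16.8) in NRXN3, against 4.09 per Mb in the rest of chromosome 14, 2.59 times as high (1.54 to 4.10). Such intervals cover counting error only, treat the rest of the chromosome as exact and treat peaks as independent. The POLR2A density was 1.18 per Mb (0.143 to 4.26) in NRXN3 against 4.91 in the rest of the chromosome, 0.240 times as high (0.0290 to 0.866). Of the 18 Flag-USP39 peaks, 8 held 3 tags, 5 held 4, 4 held 5 and 1 held 6, at chr14:80208093-80208745. None met a POLR2A peak.

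The NRXN3 peaks formed a pair of runs. There were 9 on either side of the gene's midpoint, and between them lay an interval of 401 kb without a Flag-USP39 peak, interrupted by 1 of the 2 POLR2A peaks, chr14:79723689-79724029, with 5 tags. The other POLR2A peak within the gene, chr14:79191504-79191889 with 4 tags, was 8.86 kb from a Flag-USP39 peak of 3 tags. The 2 intergenic POLR2A peaks, with 4 and 5 tags, had their centres 145 kb and 41.9 kb before the first start.

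CTNND2 had the highest Flag-USP39 density of the 6. Its 10 peaks within the gene gave 10.7 per Mb (5.14 to 19.7), against 3.80 in the rest of chromosome 5, 2.82 times as high (1.35 to 5.19). All held 3 to 5 tags, and the promoter peak described above is not among them because its centre lies before the start. The POLR2A density was 4.29 per Mb (1.17 to 11.0) against 4.54 in the rest of the chromosome, from 4 peaks of 4 or 5 tags. Within CTNND2 the upstream end had no peak of either antibody. The first Flag-USP39 peak within the gene was 267 kb from the full-length start and the first POLR2A peak 361 kb. That POLR2A peak was the one that overlapped a Flag-USP39 peak, chr5:11543000-11543567, each with 4 tags.

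GPC6 and LRMDA held 8 Flag-USP39 peaks each. In GPC6 the density was 6.77 per Mb (2.92 to 13.3), against 2.87 in the rest of chromosome 13, 2.36 times as high (1.02 to 4.66). In LRMDA it was 7.11 (3.07 to 14.0), against 3.96 in the rest of chromosome 10, 1.79 times as high (0.774 to 3.53). POLR2A densities were 4.23 (1.37 to 9.88) in GPC6 against 3.27 in the rest of its chromosome, and 6.22 (2.50 to 12.8) in LRMDA against 4.22.

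The GPC6 peaks were small. The Flag-USP39 peaks held 3 tags in 5 cases and 4 in the other 3, and the POLR2A peaks 4 to 7, with the 7 at chr13:94227530-94228243. No peak of either antibody lay in the first 252 kb of the gene, although 4 of 8 Flag-USP39 and 4 of 5 POLR2A peaks lay before its midpoint. LRMDA held the Flag-USP39 peak with the most tags outside DLG2, 7 at chr10:77271767-77272510. A POLR2A peak of 4 tags overlapped it by 241 bp. The LRMDA introns had no Flag-USP39 peak over 583 kb between 512 and 1095 kb from the start, a stretch in which 3 of the 7 POLR2A peaks lay.

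MACROD2 and DLG2, the longest of the 6, had Flag-USP39 densities near those of their chromosomes. MACROD2 had 9 peaks, 4.37 per Mb (2.0 to 8.30) against 4.09 in the rest of chromosome 20, a ratio of 1.07 (0.490 to 2.03). DLG2 had 8, 3.68 per Mb (1.59 to 7.26) against 4.59 in the rest of chromosome 11, a ratio of 0.802 (0.346 to 1.58). The MACROD2 POLR2A density was 2.43 per Mb (0.789 to 5.67) against 5.86 in the rest of chromosome 20, a ratio of 0.414 (0.135 to 0.967). In DLG2 it was 5.06 (2.53 to 9.06) against 5.51, a ratio of 0.918 (0.458 to 1.64). DLG2 was the only member with more POLR2A than Flag-USP39 peaks within the gene, 8 Flag-USP39 and 11 POLR2A.

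The MACROD2 peaks were small. The Flag-USP39 peaks held 3 tags in 7 cases and 4 in the other 2, and the POLR2A peaks 4 in 4 cases and 5 in 1. Flag-USP39 peaks lay mostly toward the start, with 7 of 9 before the midpoint and none in the last 599 kb. In DLG2, 10 of the 11 POLR2A peaks and 5 of the 8 Flag-USP39 peaks lay before the midpoint. The POLR2A peaks of DLG2 left a gap of 958 kb before the last of them, which lay near the internal start.

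**Figure D2:**
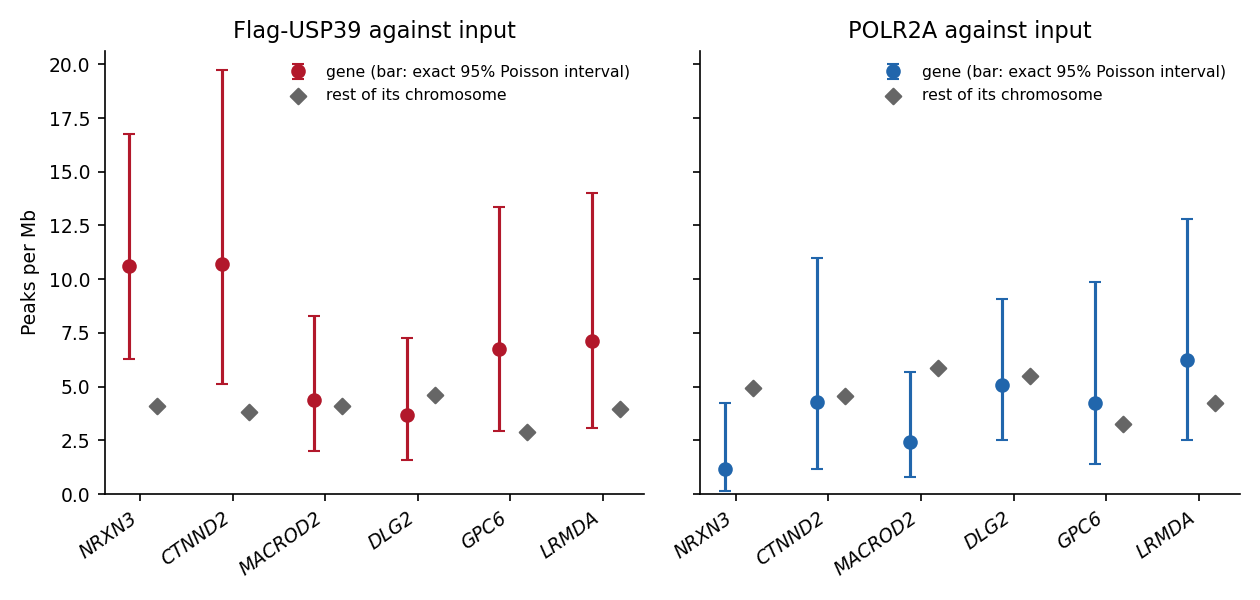
Peaks per Mb within each gene for Flag-USP39 (left) and POLR2A (right), with exact 95% Poisson intervals, beside the density of the rest of the chromosome that holds the gene (grey diamonds). NRXN3 and CTNND2 have the highest Flag-USP39 densities, 10.6 and 10.7 per Mb, and NRXN3 has the lowest POLR2A density, 1.18 per Mb; since the genes were chosen by their peaks, the intervals are no test.

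Taking the genes as 1 set, 61 Flag-USP39 peaks lay within 9.17 Mb, 6.65 per Mb (5.09 to 8.55), against 3.92 in the rest of their 6 chromosomes, 1.70 times as high (1.30 to 2.18). The 34 POLR2A peaks gave 3.71 per Mb (2.57 to 5.18) against 4.65, 0.797 times as high (0.552 to 1.11). There were 1.79 Flag-USP39 peaks for each POLR2A peak within the genes, against 0.824 over the lists and 0.926 among all intron peaks. The lists were not cut alike. The Flag-USP39 list goes down to 3 tags and the POLR2A list to 4, and the authors' p-value thresholds were 1e-05 and 1e-04. Peaks of 3 tags made up 29 of the 62 Flag-USP39 peaks of these genes. With at least 4 tags in both lists, a limit chosen after seeing the data, the genes held 32 Flag-USP39 and 34 POLR2A peaks, and with at least 5 tags 11 of each. Over the whole lists, 6377 of 11565 Flag-USP39 peaks and all 14027 POLR2A peaks held 4 or more tags. At 5 or more tags the whole lists held 2787 Flag-USP39 and 5282 POLR2A peaks.

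For the 6 genes together, the ratio to the rest of the chromosomes moved less with that limit than the counts did. At 4 or more tags the Flag-USP39 density of the 6 genes was 1.62 times (1.11 to 2.28) and at 5 or more tags 1.34 times (0.667 to 2.39) that of the rest. The second rests on 11 peaks. For NRXN3 alone the ratios were 2.65 (1.27 to 4.88) and 3.17 (1.03 to 7.39), on 10 and 5 peaks. For CTNND2 the ratio was 3.14 (1.15 to 6.85) on 6 peaks and 1.24 (0.0315 to 6.93) on 1 peak. At 4 or more tags GPC6 had a ratio of 1.69 (0.348 to 4.93) on 3 peaks and MACROD2 one of 0.404 (0.0489 to 1.46) on 2, and at 5 or more tags neither MACROD2 nor GPC6 had a Flag-USP39 peak. LRMDA had Flag-USP39 ratios of 2.36 (0.866 to 5.14) on 6 peaks and 1.99 (0.241 to 7.18) on 2. Those of DLG2 were 0.908 (0.295 to 2.12) on 5 peaks and 1.24 (0.255 to 3.62) on 3. For POLR2A at 5 or more tags the ratio was 0.761 (0.380 to 1.36) for the 6 genes together, on 11 peaks. It was lowest in MACROD2, 0.268 (0.00679 to 1.49), and NRXN3, 0.331 (0.00839 to 1.85), on 1 peak each. The highest was 2.23 (0.460 to 6.52) in GPC6, on 3 peaks.

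The peaks of the 6 genes were as shallow as intron peaks in general. The median was 4 tags for Flag-USP39 and 4 for POLR2A, the same as among all intron peaks of either list. Peaks of at most 5 tags made up 91.9% of the Flag-USP39 peaks of these genes, against 91.8% of all intron peaks, and 91.7% of the POLR2A peaks, against 88.2%. The median fold enrichment was 32.7 for Flag-USP39 peaks of the 6 genes and 32.7 for all intron peaks, and for POLR2A peaks it was 24.9 and 24.4. Only DLG2 had peaks of 10 or more tags, 1 for Flag-USP39 and 2 for POLR2A, where the whole lists have 2.92% and 4.23% of such peaks.

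**Figure D3:**
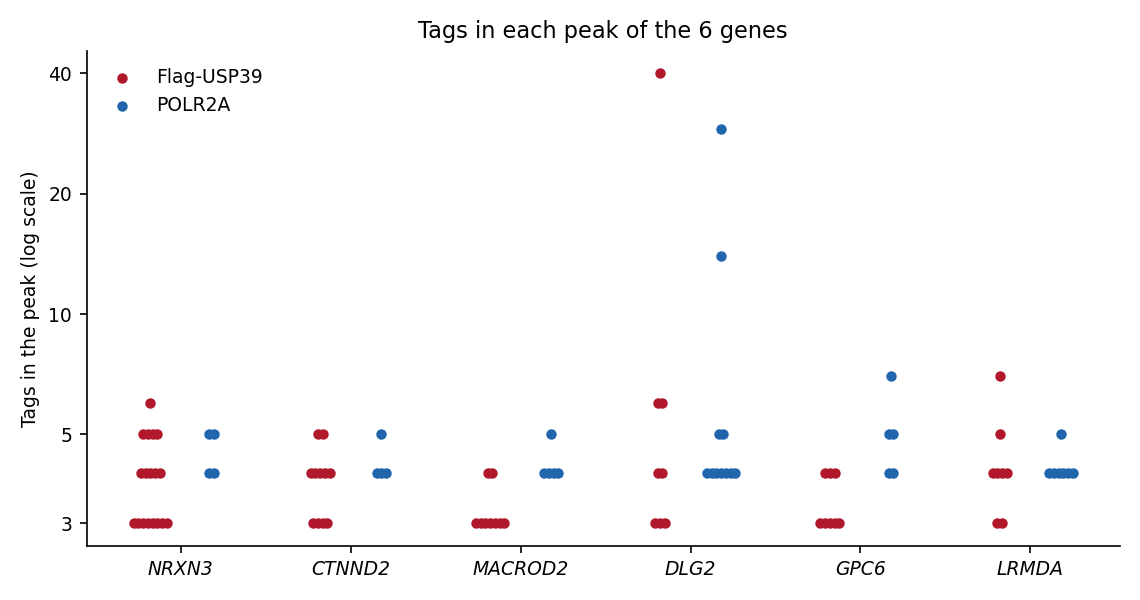
Tags in each peak of the 6 genes on a log scale, with Flag-USP39 on the left and POLR2A on the right of each gene. DLG2 alone has peaks of 10 or more tags, at 40 for Flag-USP39 and at 14 and 29 for POLR2A, while the other genes stay between 3 and 7.

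Peaks of the 2 antibodies rarely coincided, in these genes as in the whole lists. Of the 62 Flag-USP39 peaks, 4 shared at least 1 bp with a POLR2A peak (6.45%, 95% Wilson interval 2.54 to 15.4), where 6.04% of all Flag-USP39 peaks and 3.62% (3.06 to 4.29) of the intronic ones did. Of the 36 POLR2A peaks, 4 overlapped a Flag-USP39 peak (11.1%, 4.41 to 25.3), where 5.1% of all POLR2A peaks and 3.51% (2.97 to 4.14) of the intronic ones did. The members' shares rest on the same 4 pairs. Within 10 kb of a POLR2A peak there were 11 of the 62 Flag-USP39 peaks, and the median distance to the nearest was 83.0 kb.

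The pairs with the most tags were both in introns of DLG2. Overlap was common among deep peaks of the whole lists. Of peaks with 10 or more tags, 87.6% for Flag-USP39 and 53.3% for POLR2A overlapped a peak of the other list. At chr11:85194947-85195305 there were 40 Flag-USP39 tags, and the POLR2A list had 29 tags in a peak that began at the same base and ended 4 bp earlier. The fold enrichment there was low for so many tags, 12.5 for Flag-USP39 and 7.01 for POLR2A, while all peaks with 10 or more tags had median fold enrichments of 46.7 and 39.0. Only 28 of those 338 Flag-USP39 peaks and 26 of those 593 POLR2A peaks had a fold enrichment that low or lower. Since the fold enrichment divides a height of at most all the tags by the local background, the DLG2 values correspond to a background of at most 3.21 and 4.14 tags. A Flag-USP39 peak of 3 tags over the lowest background has a fold enrichment of 32.7, hence 10.9 for each tag. What gives the background at this site was not tested.

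The second DLG2 pair was of another kind. At chr11:84425488-84425779 the Flag-USP39 peak held 6 tags with a fold enrichment of 65.3, the highest of the Flag-USP39 peaks of these genes. The POLR2A peak, chr11:84425500-84426090, held 14 tags with a fold enrichment of 108, the highest of any peak of these genes, and began 12 bp from the start of the Flag-USP39 peak. Both pairs had scores of at least 100, which is a p-value of at most 1e-10, for both antibodies. No other peak of the 6 genes reached that score, and 3.29% of Flag-USP39 and 3.71% of POLR2A peaks in the whole lists did.

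The gene that the authors' lists name for a peak is most often the one with the nearest start. For 93.9% of Flag-USP39 and 92.8% of POLR2A peaks the assigned start was the nearest of all starts in the lists, to within 10 bp. The lists do not name genes alike, however. A nearer start of a gene named only in the other list existed for 336 Flag-USP39 peaks (2.91%) and 314 POLR2A peaks (2.24%), and peaks within 1 gene can carry its symbol in 1 list and a neighbour's in the other. The reason was not tested. Counts by symbol are therefore not comparable between the antibodies gene by gene. Counts by coordinates do not depend on the naming, but the unlike limits of the 2 lists still bear on them. Within the 6 spans 2 peaks carried another symbol only, a Flag-USP39 peak of 4 tags in GPC6 that was given to the antisense gene GPC6-AS2 and a POLR2A peak of 4 tags in LRMDA that was given to MIR606. By coordinates alone the 6 genes held 62 Flag-USP39 and 35 POLR2A peaks.

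Other long genes were counted by coordinates for that reason. In all, 240 genes had a transcript of at least 500 kb in the lists, the 6 genes and 234 others. Counted by coordinates, Flag-USP39 peaks reached 6.76 per Mb (5.19 to 8.67) in the 6 genes and 3.55 (3.29 to 3.84) in the others. POLR2A peaks reached 3.82 (2.66 to 5.31) in the 6 genes and 3.24 (2.99 to 3.51) in the others. There were more Flag-USP39 than POLR2A peaks in 4 of the 6 genes and in 112 of the 234 others. The 40 others of at least 1 Mb had 3.04 Flag-USP39 and 2.54 POLR2A peaks per Mb, with a median POLR2A density of 1.72. Among these 40, Flag-USP39 peaks were more numerous in 25 genes and POLR2A peaks in 12. In the lists as called, more Flag-USP39 than POLR2A peaks is thus not particular to the 6 genes. These counts of genes keep Flag-USP39 peaks of 3 tags, while the POLR2A list begins at 4 tags, and they were not repeated at an equal limit. NRXN3 held the most Flag-USP39 peaks of the 240, but ranked 10 by density, behind CTNND2 at 9, while MACROD2 ranked 85 and DLG2 105. By POLR2A density LRMDA ranked 31 and NRXN3 190. A gene enters this set only if a peak was assigned to it. Spans of some of the others overlap, and a peak there counts for each such gene.

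**Figure D4:**
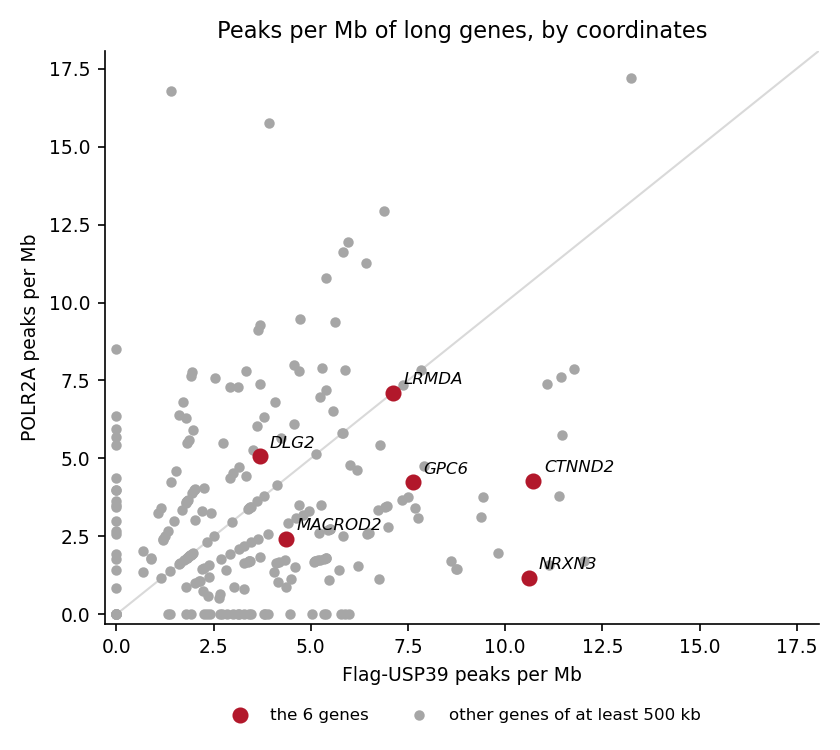
Flag-USP39 against POLR2A peaks per Mb, counted by coordinates, for the 6 genes (red, named) and the 234 other genes with a transcript of at least 500 kb (grey), with the line of equal density. NRXN3 and CTNND2 lie far to the right at 10.6 and 10.7 Flag-USP39 peaks per Mb, and DLG2 and MACROD2 lie within the cloud of the others.

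The genes whose pair of densities was nearest to the median of the 6, by distance on a log2 scale after adding 1, included RABGAP1L, KALRN, FAT3 and STARD13, over 2 libraries. RABGAP1L had 7.51 Flag-USP39 and 3.76 POLR2A peaks per Mb, and KALRN, which encodes a neuronal guanine nucleotide exchange factor, 7.92 and 4.75. FAT3, a giant cadherin gene, had 7.35 and 3.67. These values rest on 2 to 6 peaks a gene.

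Related genes were followed in 6 lists, by assigned symbol for the counts of genes and by coordinates for single genes. Among all protein-coding genes, 25% had a Flag-USP39 and 33.2% a POLR2A peak assigned. Of 17 common fragile site genes, 12 had a Flag-USP39 and 10 a POLR2A peak assigned. Longer genes have more room for peaks, and gene length was not allowed for. Within DMD, the dystrophin gene, lay 5 Flag-USP39 and 9 POLR2A peaks, and within PARD3B, a cell polarity gene, 6 and 7. CNTNAP2, a neurexin relative, held 7 and 2, and WWOX, a tumour suppressor gene, 2 and 7. DAB1, an adaptor of reelin signalling, held 6 and 4, and none of its 4 POLR2A peaks carried its symbol.

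Of 14 genes of other neurexins and their ligands, 5 had a Flag-USP39 and 6 a POLR2A peak assigned. NLGN1, which encodes a postsynaptic ligand of neurexins, held 2 and 0 by coordinates, and LRRTM4, which encodes another, 5 and 2. Of 9 genes of catenins and cadherins, 5 had a Flag-USP39 and 6 a POLR2A peak assigned. CTNND1, which encodes p120-catenin, the widely expressed relative of delta-catenin, held 4 Flag-USP39 peaks of up to 6 tags and 5 POLR2A peaks of up to 18 tags, with 1 of each within 2 kb of a start. CTNNB1, which encodes beta-catenin, held 2 and 5, with a POLR2A peak and no Flag-USP39 peak within 2 kb of a start.

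Of 11 genes of guanylate kinase scaffolds and their partners, 5 had a Flag-USP39 and 8 a POLR2A peak assigned. SHANK2, a postsynaptic scaffold gene, held 4 and 7, with 1 of each within 2 kb of a start. DLG1 and DLG4, relatives of DLG2, each had a POLR2A peak and no Flag-USP39 peak within 2 kb of a start. Of 5 other glypican genes, 3 had a Flag-USP39 and 3 a POLR2A peak assigned. GPC3 held 3 and 3 by coordinates, while GPC5, on chromosome 13 like GPC6 and 1.47 Mb long, held 1 and 2. Of 6 genes of macrodomain proteins, 2 had a Flag-USP39 and 2 a POLR2A peak assigned, none of more than 5 tags.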

How the data were processed

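ChIP-seq libraries were grouped by the antibody in the labels, with 1 library in each of 3 groups. Bowtie2 version 2.2.4, MACS version 1.4.3 and the build hg19 are named per the submitters' processing notes. The sources used here give neither the depth of a library nor the handling of duplicate reads. The authors' tables give, per the file headers, a raw count of tags for every peak. Their score, per the file headers, is the p-value on a log10 scale, multiplied by minus 10, with a minimum of 50 for Flag-USP39 and 40 for POLR2A. Their fold enrichment is, per the file headers, a linear ratio over background. Their false discovery rate, a percent per the file headers, filtered nothing here. Peaks within the lists held 62327 Flag-USP39 and 86228 POLR2A tags.

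The 20273 and 27766 lines were reduced to 1 per peak, or 1 per gene and peak, keeping the transcript with the nearest start. Symbols were matched to RefSeq (GRCh38.p14): 12053 of 12772 (94.4%) matched, 636 by an older name. RefSeq also gave the protein-coding class and the promoter sequences, but not the positions of peaks or gene spans. Densities divide peaks with their centre in the gene span by that span. A chromosome runs from its first to its last position in the lists, assembly gaps included. With 1 library a group no test was made. Intervals are 95% exact Poisson for densities and Wilson for shares. Long genes were measured by their longest transcript, since copies of 1 symbol can lie far apart. The genes named were the 6, the 5 nearest in density, the 5 other long genes with the most Flag-USP39 peaks, and examples of related lists by number of peaks; WWOX, DAB1, DLG1, DLG4 and GPC5 were chosen for naming after their values were seen. Some genes that this rule names are not reported here. The 6 genes and the lists were chosen with earlier results of these data known. Counting was tested on simulated data. Python 3.11.15, pandas 2.3.3, numpy 2.4.6, scipy 1.17.1 and matplotlib 3.10.9 were used.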

Additional observations from a re-analysis of the deposited data

How the results depend on the processing

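The density of the 6 genes depended on the lowest number of tags and the p-value. The Flag-USP39 density of 6.65 per Mb became 3.49 at 4 or more tags, a limit chosen after seeing the data, 1.20 at 5 or more tags and 0.218 at a score of at least 100, where 2 peaks were left. The POLR2A density of 3.71 became 1.96 at a score of at least 50 in both lists, 1.20 at 5 or more tags and 0.218 at a score of at least 100. The share of Flag-USP39 peaks that overlap a POLR2A peak, 6.45%, became 3.23% at a score of at least 50 in both lists, 12.1% at 4 or more tags, 16.7% at 5 or more tags, on 12 peaks, and 100% at a score of at least 100, on 2 peaks. Shares of all peaks at these limits are not given here. Over the whole Flag-USP39 list, 87.6% of peaks with 10 or more tags overlapped a POLR2A peak, against 6.04% of all peaks. A higher share among deeper peaks is thus not particular to the 6 genes. The limits leave fewer peaks by construction. Taking all peaks of the symbols or peaks by coordinates moved none of the 12 values of single genes outside their counting intervals. Those intervals are wide: with all peaks of the symbol the NRXN3 POLR2A density went from 1.18 to 2.36 per Mb and stayed inside. The longest transcript gave the same 12 values as the spans used, so that setting could not show any dependence. No paired analysis was possible because each group has 1 library. Most peaks hold 3 to 5 tags, so single peaks carry a wide counting error.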

Other observations

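Other genes of at least 500 kb held as many Flag-USP39 peaks as some of the 6. Counted by coordinates, NBPF20 had 16 Flag-USP39 and 30 POLR2A peaks and NBPF9 had 10 and 13. Both belong to a family of near-identical copies on chromosome 1, whose reads cannot be placed with certainty. The span of NBPF9 lies within that of NBPF20, so its peaks are counted for both genes. CNTN4, which encodes a neuronal contactin, had 9 and 3, and TENM4, which encodes a teneurin, had 9 and 6. CDH13, which encodes a cadherin without a cytoplasmic tail, had 9 and 4. None of its 9 Flag-USP39 peaks carried its symbol in the authors' list, though POLR2A peaks within the gene did, and the reason was not tested.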
